A study of Mus musculus with 12 samples.

Results

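Voltage-gated and potassium channel genes were taken as every deposited row whose symbol starts with Kcn or Cacn or is that of a numbered sodium channel alpha or beta subunit (Scn1a, Scn2b and the like). They numbered 92 of the 18180 genes measured, 61 of the potassium, 10 of the sodium and 21 of the calcium channel class. Of 134 protein-coding genes whose symbols meet this rule in the GENCODE M21 annotation, 90 were measured and 44 were not analysed here, and the other 2 members, Kcnd3os and Kcnq1ot1, are antisense RNAs. The authors kept genes above 1 CPM (reads of a gene scaled to the library total) in at least 3 samples, which 1 population alone can satisfy, so the counts below describe the genes that were kept and not the whole family.

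The libraries are bulk RNAseq of EGFR+ cells flow sorted from mouse glioblastoma (GBM), the most aggressive primary brain cancer of adults. Mice on a mixed background (C57Bl/6J, 129S4, FVBN/J, Balb/cJ and SJL) carried conditional human EGFR, loss of Cdkn2a and a conditional luciferase reporter, and an intracranial lentivirus carrying Cre started the tumor, so that all 4 populations share the same alleles. Cells of 3 end-stage tumors, T3, T4 and T5, were each sorted by EGFR with PDGFRA into PDGFRA+ and PDGFRA– cells and by EGFR with Galectin-1 (GAL1, the product of Lgals1) into GAL1+ and GAL1– cells. Each population has 1 library per tumor, so n = 3 per group and 12 in all. Values are log2 CPM as deposited. Reads recovered from them came to between 9851175 and 24117541 per library, and 3 reads, the floor used for detection, lie between −2.99 and −1.44 log2 CPM depending on the library. The floor covers counting error only. At least 84 of the 92 channel genes lay above it in every library, and 78 were above it in all 12.

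The sort genes, mouse Egfr and markers of other cells were read first. Pdgfra was at 10.30 ± 0.45 log2 CPM (SD, n = 3 in this and the following values) in PDGFRA+ cells and 8.70 ± 1.38 in PDGFRA– cells, and these groups overlapped (limma, adjusted p = 0.249). Lgals1 was at 7.66 ± 0.27 in GAL1+ and 6.38 ± 0.39 in GAL1– cells (adjusted p = 0.000967). Egfr, here the mouse gene, had a level of 10.51 ± 0.12 log2 CPM in GAL1– cells and of 8.41 ± 0.68 in GAL1+ cells. PDGFRA+ libraries averaged 10.18 ± 0.29 and PDGFRA– libraries 9.45 ± 1.12. The GAL1 sort differed for it by 2.10 (SE 0.32, adjusted p = 0.000461) with no overlap, in the direction of most channel genes, and its part in the channel results was not tested. The model's EGFR is a human gene, and the study labels the sorted cells as positive for human EGFR, while reads were aligned to the mouse genome. The mouse Egfr row is therefore not a measure of the sort target, and how far human reads enter it was not tested. The study describes the cells as CD45-negative, but its methods for this sort name no CD45 antibody. Ptprc, the gene of CD45, was highest in GAL1+ cells (8.65 ± 0.40 log2 CPM), followed by PDGFRA– (7.46 ± 1.06), PDGFRA+ (6.92 ± 0.70) and GAL1– cells (4.60 ± 0.79). The PDGFRA– library of T5 stood apart from the other PDGFRA– libraries. On the first principal component over all genes, which held 58.5% of the variance, it lay at 82.4, while PDGFRA– T3 and T4 lay at −13.5 and −16.8 and the 3 GAL1+ libraries between 63.8 and 120. For the channel genes, calls and medians of the PDGFRA sort, which uses it, are given with and without it.

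Voltage-gated potassium (Kv), sodium (Nav) and calcium (Cav) channels open when the membrane depolarizes. They shape the electrical activity of neurons, and oligodendrocyte precursor cells (OPCs), which receive synapses, carry many of them. Two-pore and inwardly rectifying potassium channels set the resting potential of glia. Microglia and T cells use a smaller set, of which Kv1.3 (Kcna3), KCa3.1 (Kcnn4), THIK-1 (Kcnk13), TWIK-2 (Kcnk6) and Kir2.1 (Kcnj2) are the best known.

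Channel genes were at their highest summed level in GAL1– cells and their lowest in GAL1+ cells. The sums take in the antisense RNAs Kcnd3os and Kcnq1ot1, which encode no channel. Kcnq1ot1, with 93.1 kb of exon, was at 2.58 CPM per kb in GAL1– and 1.91 in GAL1+ cells. In GAL1– cells the 92 genes summed to 2789, 2902 and 3102 CPM in T3, T4 and T5. PDGFRA+ libraries were at 2625, 2463 and 2411 CPM, and PDGFRA– libraries at 1993, 2111 and 1475 CPM. GAL1+ libraries were at 1376, 1222 and 1026 CPM. The 4 groups fell in the order GAL1–, PDGFRA+, PDGFRA– and GAL1+ with no overlap between neighbours, the lowest PDGFRA– value being T5. Each sum is a share of 1 library, and in bulk samples fewer cells of a type and less RNA per cell cannot be told apart. Of the 92 genes, 61 (66.3%) had their highest mean in GAL1– cells, against 39.5% of all genes, and 18 (19.6%) in GAL1+ cells, against 39.9% of all genes. PDGFRA– cells had the highest mean of 9 genes (9.78%, against 13.5% of all genes) and PDGFRA+ cells of 4 (4.35%, against 7.11%).

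**Figure D1:**
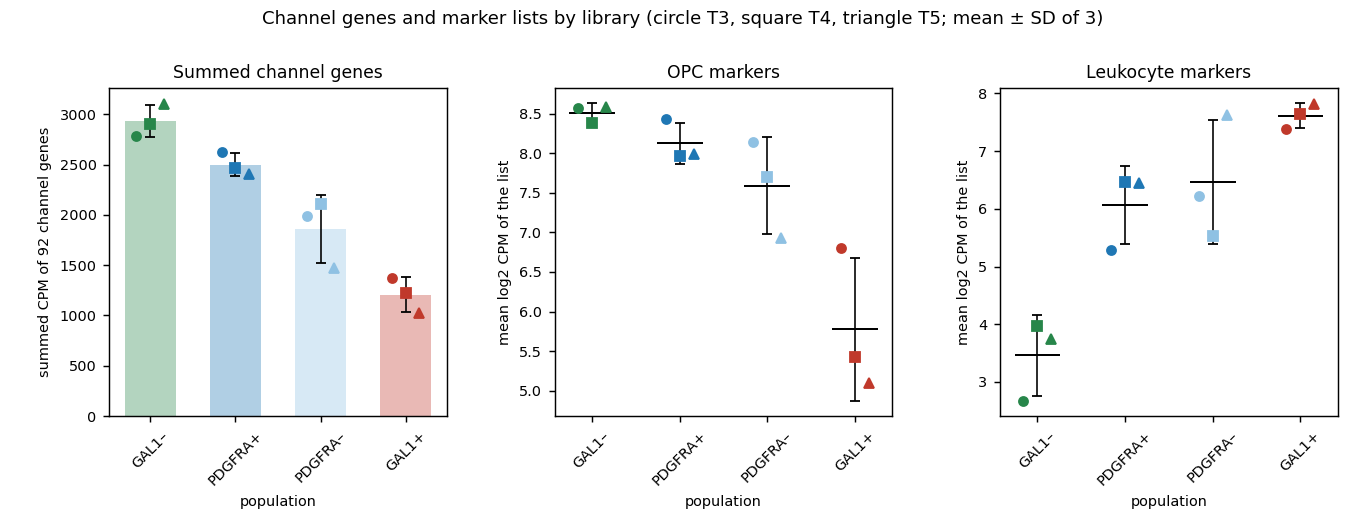
Summed CPM of the 92 channel genes (left, bars from 0) and the mean log2 CPM of OPC markers (middle) and leukocyte markers (right) in each of 12 libraries, by population; symbols mark the tumor, and lines or bars with whiskers the mean ± SD of 3. Summed channel reads run from 1026 CPM in a GAL1+ library to 3102 CPM in a GAL1– library, and the leukocyte list is lowest in the 3 GAL1– libraries.

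Several marker lists differed between the same populations. The mean of 11 OPC markers fell from 8.51 log2 CPM in GAL1– through 8.12 in PDGFRA+ and 7.59 in PDGFRA– to 5.78 in GAL1+ cells, Ptprz1 being the most abundant and none at the floor. All 11 were higher in GAL1– than in GAL1+ cells. The 12 leukocyte markers went the other way, with means of 3.46, 6.07, 6.46 and 7.61 log2 CPM in GAL1–, PDGFRA+, PDGFRA– and GAL1+ cells, Lcp1 being the most abundant, and all 12 were lower in GAL1– than in GAL1+ cells (median log2 fold change −4.30). PDGFRA– T5 was at 7.63 for this list, among the GAL1+ libraries. Of 11 macrophage markers, 10 were lower in GAL1– than in GAL1+ cells (median −5.52), the list means being 2.41 and 7.49 log2 CPM. Microglia markers (10 of 10 lower in GAL1– cells), endothelial markers (10 of 10 lower, most abundant Flt1) and pericyte markers (10 of 10 lower, most abundant Rgs5, the list including the channel gene Kcnj8) were also lowest in GAL1– and highest in GAL1+ cells. The means of the microglia list were 4.93 and 4.68 log2 CPM in PDGFRA+ and PDGFRA– cells and those of the endothelial list 3.53 and 3.51, so the PDGFRA populations did not stand in the leukocyte order there. The mean of 10 mature oligodendrocyte markers was highest in PDGFRA– cells (4.72), followed by GAL1– (3.57), PDGFRA+ (2.87) and GAL1+ cells (2.27), and 8 of the 10 were higher and 1 lower in GAL1– than in GAL1+ cells. Of 16 neuronal markers 12 were measured, and their mean was lowest in GAL1+ cells (1.5 log2 CPM) and highest in GAL1– cells (2.81), with both PDGFRA populations between (2.49 and 2.58). Of the 12, 7 were higher in GAL1– than in GAL1+ cells, among them Gad1 (2.29) and Meg3 (2.05), the most abundant, and Thy1 was lower (−0.78). The neuron-defining Rbfox3 was not called and stood at −1.05 log2 CPM in GAL1– cells and −0.92 in GAL1+ cells. Of 9 measured astrocyte markers, 5 were higher and 0 lower in GAL1– than in GAL1+ cells (median 1.35), the list means being 5.61 and 4.52 log2 CPM. The part of these other cells in the channel results was not tested.

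The comparison of GAL1– with GAL1+ cells asked how the transcriptome of EGFR+ cells differs with GAL1. It gave the most calls among channel genes. Of the 92 genes, 57 were higher and 17 lower in GAL1– cells at an adjusted p under 0.05 (limma with the tumor as a block, Benjamini-Hochberg over all 18180 genes), where 58.2% of all genes were called, 29.3% higher and 28.9% lower. The median log2 fold change was 1.69 over the channel genes and 0.03 over all genes, and per tumor the channel medians of T3, T4 and T5 were 1.2, 2.23 and 1.80. By class, 36 potassium channel genes were higher and 14 lower of 61 (median 1.59), 6 sodium channel genes were higher and 1 lower of 10 (median 2.12), and 15 calcium channel genes were higher and 2 lower of 21 (median 1.88). All 3 libraries of GAL1– cells lay above all 3 of GAL1+ cells for 56 channel genes and below them for 17, against 30.5% and 30.1% of all genes. Of the 74 called genes, 72 moved the same way in each tumor, the exceptions being Kcnn2 and Kcnn3, which were not higher in T3.

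**Figure D2:**
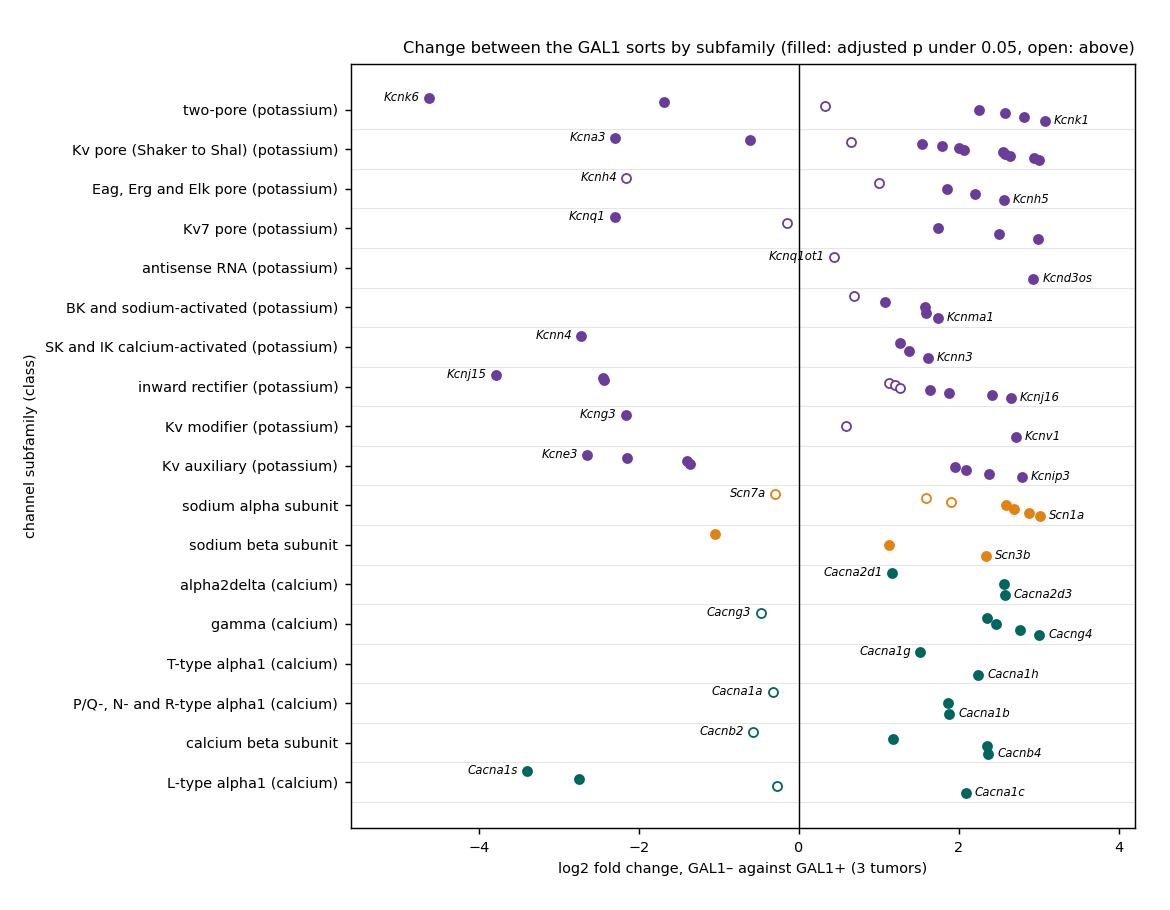
Log2 fold change of GAL1– against GAL1+ cells (x axis, 3 tumors) for each of 92 channel genes, in rows by subfamily within the potassium, sodium and calcium class; filled points have an adjusted p under 0.05, and some of the lowest and highest genes of the rows are named. Most points lie to the right of 0, up to 3.08 for Kcnk1, and those to the left reach −4.63 for Kcnk6.

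To set genes that moved in opposite directions side by side, promoter windows (250 bases before the start of the transcript and 50 after it) are shown for the potassium and calcium channel genes with the largest and the smallest log2 fold change among called genes above the floor in every library that have a window in the RefSeq table (GRCm38.p6). Capitals mark the E-box CAGCTG, which reads the same on both strands, and the ETS core GAGGAA or its reverse complement. Kcnk1 (chr8:125994852-125995151, plus strand) was higher in GAL1– cells and Kcnn4 (chr7:24370013-24370312, plus strand) lower. Cacng7 (chr7:3332575-3332874, plus strand) was higher and Cacna1s (chr1:136052561-136052860, plus strand) lower.
Kcnk1: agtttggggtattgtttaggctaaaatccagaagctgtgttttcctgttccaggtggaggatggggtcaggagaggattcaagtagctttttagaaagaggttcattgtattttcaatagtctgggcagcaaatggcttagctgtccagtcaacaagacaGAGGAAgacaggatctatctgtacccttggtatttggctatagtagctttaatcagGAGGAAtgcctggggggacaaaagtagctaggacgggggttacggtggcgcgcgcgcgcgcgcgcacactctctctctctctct
Kcnn4: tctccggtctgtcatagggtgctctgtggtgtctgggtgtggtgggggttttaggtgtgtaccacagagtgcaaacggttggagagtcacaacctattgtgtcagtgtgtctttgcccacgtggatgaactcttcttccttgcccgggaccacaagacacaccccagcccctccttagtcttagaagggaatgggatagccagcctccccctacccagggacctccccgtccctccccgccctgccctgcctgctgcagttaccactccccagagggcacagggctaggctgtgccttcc
Cacng7: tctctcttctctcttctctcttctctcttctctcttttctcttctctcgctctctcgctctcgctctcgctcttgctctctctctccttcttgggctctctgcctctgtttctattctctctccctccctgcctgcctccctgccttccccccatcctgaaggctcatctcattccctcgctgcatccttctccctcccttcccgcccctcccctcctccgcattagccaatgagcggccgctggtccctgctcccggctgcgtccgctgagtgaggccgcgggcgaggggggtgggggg
Cacna1s: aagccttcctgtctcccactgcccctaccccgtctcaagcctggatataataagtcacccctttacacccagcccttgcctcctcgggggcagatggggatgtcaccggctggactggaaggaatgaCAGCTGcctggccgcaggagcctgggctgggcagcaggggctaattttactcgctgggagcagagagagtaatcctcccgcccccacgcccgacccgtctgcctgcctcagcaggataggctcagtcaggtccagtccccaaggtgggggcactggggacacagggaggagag
The Kcnk1 window holds 2 matches to GAGGAA and the Cacna1s window 1 to CAGCTG. G and C made up 49.0% of the Kcnk1, 59.7% of the Kcnn4, 62.0% of the Cacng7 and 63.0% of the Cacna1s window, with 10, 6, 15 and 9 CpG dinucleotides. A window was listed for 70 channel genes. Median GC content was 63.0% over the 42 genes higher in GAL1– cells and 53.3% over the 13 lower, beside 60.3% over 12222 genes measured with a window and 52.7% over all 27025 windows. CAGCTG was in 26.2% of the windows of genes higher in GAL1– cells and 23.1% of those lower, beside 15.5% of the windows of genes measured and 16.1% of all windows. GAGGAA was in 23.8% and 30.8%, beside 27.2% of windows of genes measured and 28.3% of all. The SOX core ACAAAG, searched on both strands, was in 16.7% and 15.4%, beside 14.0% of windows of genes measured and 18.7% of all, and TATAAA in 2.38% and 7.69%, beside 7.9% and 14.2%. These are matches of letters and not binding sites.

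Among pore subunits of the Shaker to Shal families (Kv1 to Kv4), which carry delayed-rectifier and A-type currents, 9 of 12 were higher and 2 lower in GAL1– cells. Kcnd2 (Kv4.2, an A-type channel) was the most abundant of them per length of exon in every population but GAL1+ cells, where Kcna3 was. Kcnd2 was at a log2 CPM of 7.57, 7.73 and 7.58 in GAL1– T3, T4 and T5 and of 7.42, 7.32 and 7.16 in PDGFRA+ cells. In PDGFRA– cells it was at 6.72, 6.74 and 5.62, and in GAL1+ cells at 5.95, 4.54 and 4.75. GAL1+ libraries lay below every GAL1– and PDGFRA+ library, and the fold change of GAL1– over GAL1+ cells was 2.55 on the log2 scale (SE 0.30, adjusted p = 0.000123). Its relative Kcnd3 (Kv4.3) differed by 2.94 (SE 0.36). The fast-gating channel Kcnc1 differed by 2.64 (SE 0.46), and the axonal Kv1 channels Kcna1, Kcna2 and Kcna6 by 2.0, 1.79 and 2.06. Kcna5 had 0.69 log2 CPM in GAL1– and 0.04 in GAL1+ cells and was not called.

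Kcna3 (Kv1.3, the channel of activated T cells and microglia) ran the other way. It was at 2.38, 2.72 and 2.33 log2 CPM in GAL1– cells, 3.11, 3.92 and 3.48 in PDGFRA+ cells, 3.45, 3.59 and 5.05 in PDGFRA– cells, and 4.58, 5.15 and 4.58 in GAL1+ cells. The GAL1– libraries were below all others, PDGFRA– T5 lay within the range of GAL1+ cells, and the fold change was −2.29 (SE 0.35, adjusted p = 0.000474). Kcnd1 (Kv4.1) was lower by a small margin, at −0.62 (SE 0.23, adjusted p = 0.0433).

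Kv4 pores work with calcium-binding KChIP subunits, and of the 8 auxiliary subunits of Kv channels 4 were higher and 4 lower in GAL1– cells. Kcnip3 (KChIP3, also known as calsenilin and DREAM) was at 7.85, 7.74 and 7.91 log2 CPM in GAL1– cells, 7.70, 7.58 and 7.38 in PDGFRA+ cells, 7.21, 6.57 and 5.55 in PDGFRA– cells, and 6.11, 4.69 and 4.35 in GAL1+ cells. Each PDGFRA+ library exceeded each PDGFRA– library, and each GAL1– library each GAL1+ library, with a fold change of 2.78 (SE 0.33) between GAL1– and GAL1+ cells. Kcnip1, Kcnip2 and the cytoplasmic beta subunit Kcnab3 were higher as well, by 2.37, 1.95 and 2.08. By contrast, Kcnip4 (KChIP4) had a fold change of −2.14 (SE 0.67) with 2 libraries of T4 far above their groups, PDGFRA+ at 5.14 and GAL1+ at 6.16 log2 CPM, and the groups overlapped. The beta subunit Kcnab2 was lower by −1.36 (SE 0.26), and the single-span subunits Kcne4 and Kcne3 by −1.40 and −2.65. Kcne3 rested on 8.1, 3 and 0 reads in GAL1– and 19.25, 3.1 and 8 in GAL1+ cells, and its groups overlapped. The silent subunit Kcnv1 was higher by 2.71 (SE 0.74), and Kcng3 lower by −2.16 (SE 0.49). Kcnv1 rested on 30.4, 2 and 19 reads in GAL1+ cells, and its differences in T3, T4 and T5 were 1.70, 5.22 and 1.22.

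Kv7 channels carry the M current, which limits repetitive firing, and Kcnq3 and Kcnq5 contribute to it in neurons. Both were higher in GAL1– cells, by 2.5 (SE 0.35) and 1.73 (SE 0.25). Kcnq3 was at 3.81, 4.10 and 4.24 log2 CPM in GAL1– cells and 2.13, 0.32 and 2.19 in GAL1+ cells, with no overlap. Kcnq1, which serves heart and epithelia, went the other way with −2.30 (SE 0.28, adjusted p = 0.000122), from 2.13, 2.20 and 0.73 log2 CPM in GAL1+ cells to −0.67, 0.20 and −1.38 in GAL1– cells. Its exons overlap those of the antisense RNA Kcnq1ot1, whose own value was 7.90 ± 0.13 in GAL1– and 7.47 ± 0.12 in GAL1+ cells (adjusted p = 0.0631). Of the Eag, Erg and Elk pores, 3 of 5 were higher, namely Kcnh5 (2.56, SE 0.31), Kcnh2 (2.21, SE 0.27) and Kcnh8 (1.85, SE 0.40). Kcnh1, with 0 reads in GAL1+ T4, and Kcnh4 were not called. Kcnh4 differed by −2.16 (SE 0.94, limma, adjusted p = 0.0749), lower in each tumor and with no overlap. It rested on 6.17, 16 and 13 reads in GAL1– and 15.14, 41 and 32.5 in GAL1+ cells.

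Of the calcium- and sodium-activated channels, those called were higher in GAL1– cells except for Kcnn4. The large-conductance BK pore Kcnma1 was at 5.67 ± 0.21 log2 CPM in GAL1– and 3.93 ± 0.40 in GAL1+ cells, a fold change of 1.74 (SE 0.26). Its neuronal beta subunit Kcnmb4 and the sodium-activated pores Kcnt1 and Kcnt2 were also higher, by 1.57, 1.08 and 1.59. The small-conductance SK pores Kcnn1, Kcnn2 and Kcnn3 were higher by 1.38, 1.27 and 1.61. Kcnn4 (KCa3.1, the intermediate-conductance channel of immune cells) was lower. It was at −0.01, 3.64 and 3.14 log2 CPM in GAL1– cells, 2.43, 4.30 and 4.17 in PDGFRA+ cells, 3.0, 5.82 and 4.94 in PDGFRA– cells, and 4.40, 5.70 and 4.84 in GAL1+ cells. T3 had the lowest value in every population, and the GAL1– and GAL1+ groups did not overlap (−2.72, SE 0.43, adjusted p = 0.000517).

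Inward rectifiers, which pass potassium more readily into the cell, held 4 genes higher and 3 lower of 10. Kcnj10 (Kir4.1, the main potassium channel of astrocytes and oligodendrocyte-lineage cells) was at 7.25 ± 0.30 log2 CPM in GAL1– and 5.61 ± 0.39 in GAL1+ cells (1.64, SE 0.28), and Kcnj16 (Kir5.1), its partner, differed by 2.65 (SE 0.31). The G-protein-gated subunits Kcnj3 and Kcnj9 were higher by 1.87 and 2.41. Kcnj2 (Kir2.1) was lower, at 1.75, 1.90 and 2.28 log2 CPM in GAL1– cells against 4.37, 4.74 and 4.18 in GAL1+ cells (−2.45, SE 0.35). The pericyte channel Kcnj8 (Kir6.1) was lower by −2.44 (SE 0.49). Kcnj15 (Kir4.2) had a fold change of −3.79 (SE 0.75), resting on 11, 2.3 and 0 reads in GAL1– cells.

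Two-pore channels carry background potassium current, and here the 2 directions were farthest apart. Kcnk1 (TWIK-1) was at 4.40, 4.01 and 4.54 log2 CPM in GAL1– cells, 4.34, 3.87 and 3.66 in PDGFRA+ cells, 3.95, 2.97 and 1.88 in PDGFRA– cells, and 2.60, −0.13 and 1.25 in GAL1+ cells. Its fold change of 3.08 (SE 0.49, adjusted p = 0.000562) was the largest positive value among the channel genes. The mechanosensitive channels Kcnk2 (TREK-1) and Kcnk10 (TREK-2) differed by 2.82 (SE 0.33) and 2.58 (SE 0.27), and the acid-sensitive Kcnk3 (TASK-1) by 2.26 (SE 0.31). Kcnk6 (TWIK-2) was at −1.14, 1.72 and 1.34 log2 CPM in GAL1– cells, 2.79, 4.06 and 4.32 in PDGFRA+ cells, 3.38, 2.88 and 5.40 in PDGFRA– cells, and 4.77, 5.44 and 5.6 in GAL1+ cells. That is a fold change of −4.63 (SE 0.55, adjusted p = 0.000118), and PDGFRA– T5 again lay among the GAL1+ libraries. Kcnk13 (THIK-1, which sets the resting potential of microglia) was lower by −1.69 (SE 0.26). Kcnk5 (TASK-2) was not called.

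**Figure D3:**
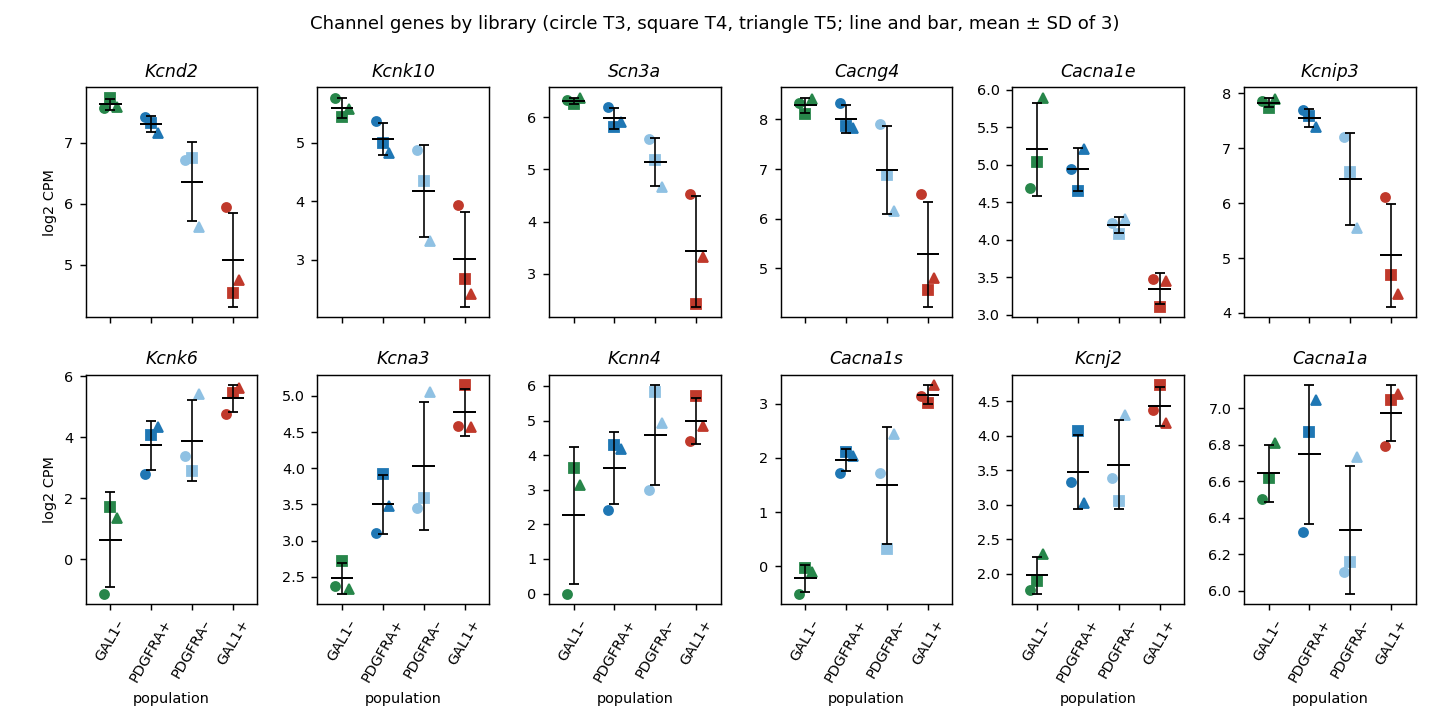
Log2 CPM of 12 channel genes in each library by population; symbols mark the tumor and lines with whiskers the mean ± SD of 3. The upper row falls from GAL1– to GAL1+ cells, as Cacng4 does from 8.29 to 5.28. In the lower row, the genes other than Cacna1a are lower in GAL1– than in GAL1+ cells by the test.

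Sodium channels depolarize the membrane at the start of an action potential. All 4 alpha subunits of the brain, Scn1a (Nav1.1), Scn2a (Nav1.2), Scn3a (Nav1.3, most abundant before birth) and Scn8a (Nav1.6), were higher in GAL1– cells, by 3.01 (SE 0.28), 2.68 (SE 0.38), 2.88 (SE 0.34) and 2.58 (SE 0.34). Scn3a was at 6.33, 6.25 and 6.36 log2 CPM in GAL1– cells, 6.19, 5.82 and 5.92 in PDGFRA+ cells, 5.58, 5.17 and 4.67 in PDGFRA– cells, and 4.54, 2.43 and 3.33 in GAL1+ cells. No 2 neighbouring populations overlapped. Scn7a and Scn9a were not called. The beta subunits Scn3b and Scn2b, which anchor and modulate the pore, were higher by 2.34 (SE 0.28) and 1.13 (SE 0.37).

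Calcium channels are built of an alpha1 pore with alpha2delta and beta subunits, and the gamma genes mostly encode TARPs, auxiliary subunits of AMPA-type glutamate receptors. Among L-type pores, Cacna1c (Cav1.2) was higher in GAL1– cells, at 6.34 ± 0.17 against 4.25 ± 0.73 log2 CPM (2.09, SE 0.29), whereas Cacna1d (Cav1.3), at 5.86 ± 0.14 and 6.13 ± 0.18, was not called although its GAL1– libraries all lay below the GAL1+ libraries. Cacna1s (Cav1.1, the skeletal muscle pore) was lower by −3.40 (SE 0.41, adjusted p = 0.000121). It was at −0.51, −0.04 and −0.12 log2 CPM in GAL1– cells, 1.72, 2.12 and 2.04 in PDGFRA+ cells, 1.72, 0.32 and 2.44 in PDGFRA– cells, and 3.16, 3.01 and 3.35 in GAL1+ cells. GAL1– and GAL1+ libraries stood well apart, with about 20 reads each in the former. Cacna1f was lower by −2.75 (SE 0.54), on 1, 3.2 and 9 reads in GAL1– cells. Of the pores of synaptic release, Cacna1b (N-type) and Cacna1e (R-type) were higher by 1.88 (SE 0.28) and 1.86 (SE 0.21), while Cacna1a (P/Q-type) was not called, at 6.64 ± 0.16 in GAL1– and 6.97 ± 0.15 in GAL1+ cells (adjusted p = 0.0586). The low-voltage T-type pores Cacna1h and Cacna1g were higher by 2.24 (SE 0.40) and 1.51 (SE 0.37).

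Each of the 3 alpha2delta genes was higher in GAL1– cells, with fold changes of 2.57 for Cacna2d3, 2.56 for Cacna2d2 and 1.16 for Cacna2d1. Cacna2d2 rested on 14, 3 and 12 reads in GAL1+ cells, and its differences in T3, T4 and T5 were 1.35, 3.95 and 2.39. The beta genes Cacnb4, Cacnb3 and Cacnb1 were higher by 2.37, 2.35 and 1.17, and Cacnb2 was not called (−0.58). Of 5 gamma genes, 4 were higher. Cacng4 (TARP gamma-4) was at 8.33, 8.12 and 8.41 log2 CPM in GAL1– cells, 8.33, 7.86 and 7.82 in PDGFRA+ cells, 7.91, 6.88 and 6.16 in PDGFRA– cells, and 6.5, 4.55 and 4.80 in GAL1+ cells (3.0, SE 0.35, adjusted p = 0.000105). The ranges of GAL1– and PDGFRA+ cells overlapped, and all their libraries lay above those of GAL1+ cells. The related Cacng7, Cacng8 and Cacng5 differed by 2.77, 2.47 and 2.36. Cacng3 was at the floor in 3 libraries and varied between tumors, up to 2.72 in PDGFRA– T4.

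**Figure D4:**
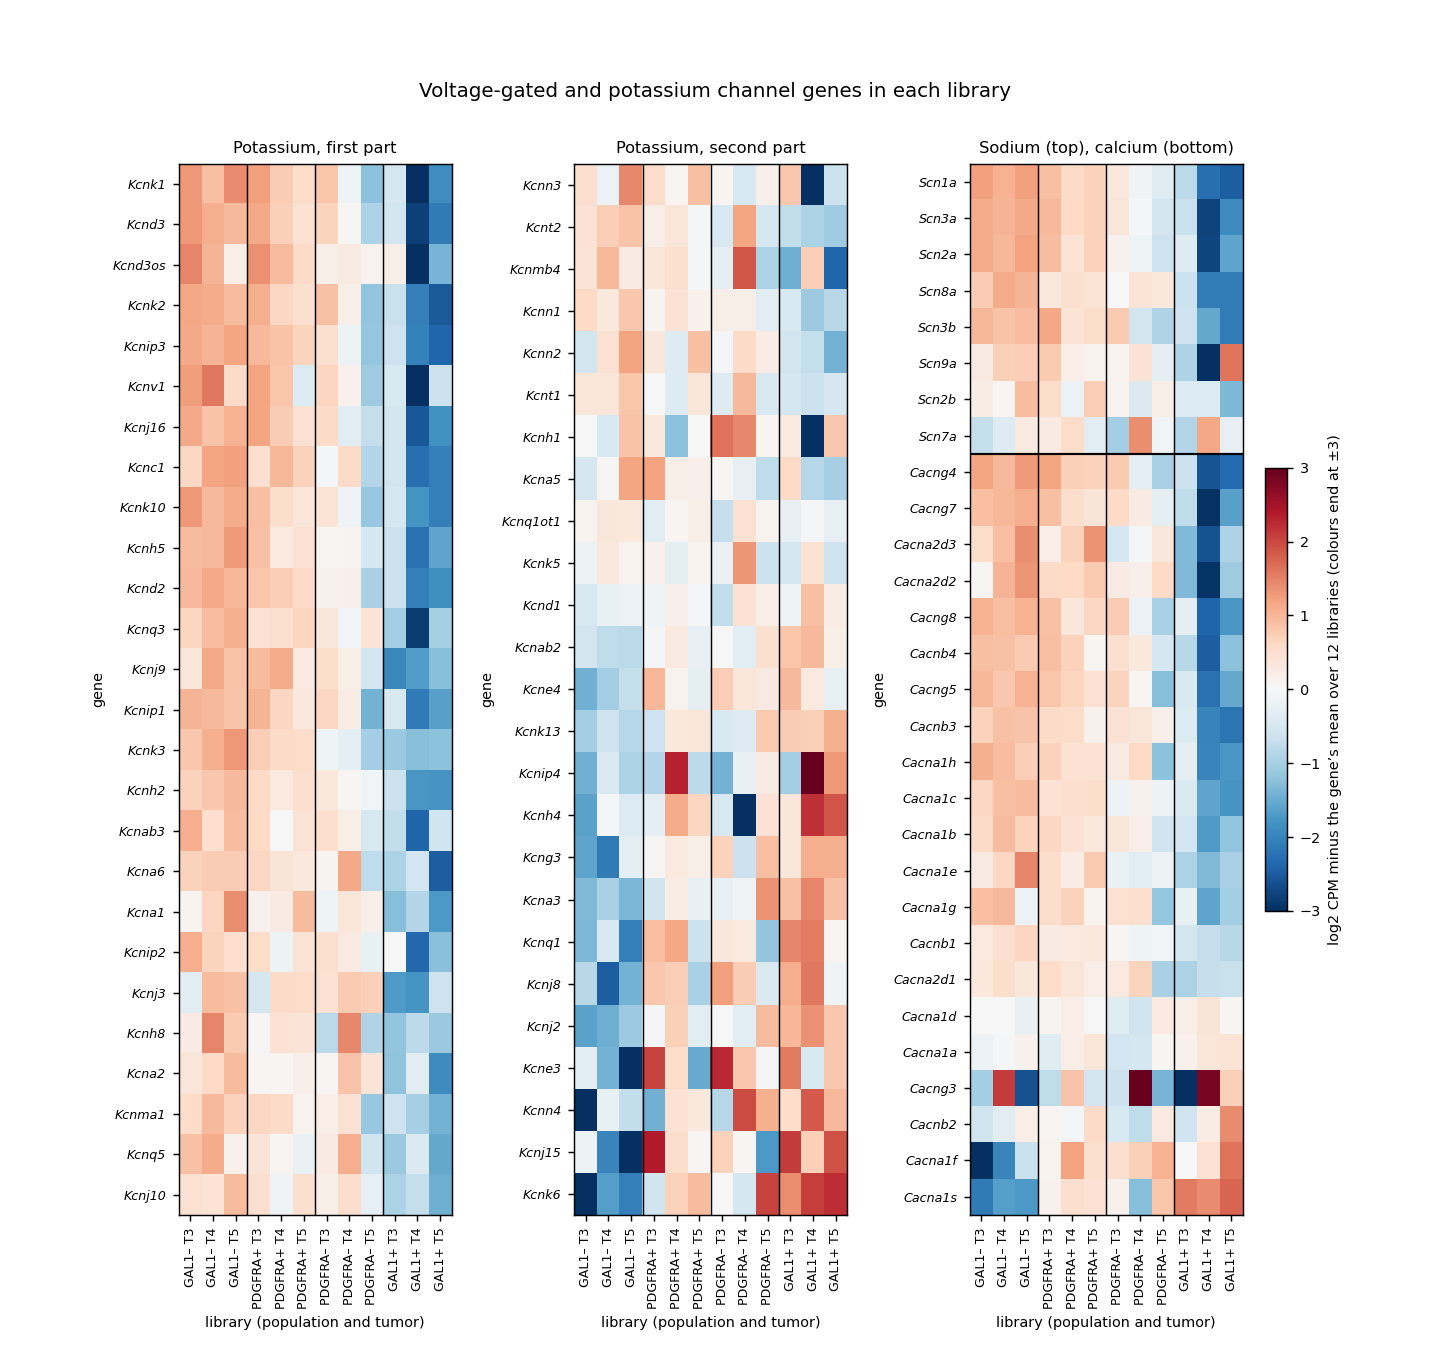
Log2 CPM of 80 channel genes named in the text (rows) in 12 libraries (columns, grouped by population), less the gene’s mean over the 12; red is above and blue below that mean, and colours end at 3 in each direction. The potassium genes fill 2 panels in order of their GAL1– against GAL1+ fold change, the sodium and calcium genes the other panel. GAL1+ libraries are blue for most genes, T4 most of all, and red for the genes at the foot of the last 2 panels, such as Kcnk6 and Cacna1s.

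To compare genes with one another, levels were divided by the length of each gene’s exons in GENCODE M21. In GAL1– cells Cacng4 led with 87.6 CPM per kb, followed by Kcnip3 (64.3), Kcnd2 (38.4) and Kcnj10 (28.6). PDGFRA+ cells had the same 4 genes at the head, at 72.7, 53.2, 30.7 and 23.2 CPM per kb. In GAL1+ cells the order differed. Kcna3 was at 14.6 CPM per kb, ahead of Cacng4 (13.2), Cacna1a (11.1), Kcnip3 (10.8), Kcnk13 (10.4) and Kcnk6 (9.56). In GAL1– cells Kcnk6 was at 0.504 CPM per kb.

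PDGFRA+ and GAL1+ cells were compared to ask how these populations of EGFR+ cells differ. This contrast uses the same GAL1+ libraries as the one above, so the values of both are given side by side and are not separate evidence. Of the 92 channel genes, 53 were higher and 5 lower in PDGFRA+ cells, where 38% of all genes were called, 20.9% higher and 17% lower. The median log2 fold change was 1.36 over channel genes and 0.006 over all genes, with tumor medians of 1.19, 1.53 and 1.31. All PDGFRA+ libraries lay above all GAL1+ libraries for 54 channel genes and below for 7, against 23.5% and 22.5% of all genes. Potassium channel genes had 32 higher and 3 lower, sodium channel genes 6 and 1, and calcium channel genes 15 and 1. Among the largest values were 3.0 (SE 0.88) for Kcnd3os, on 22, 0 and 5 reads in GAL1+ cells, 2.72 (SE 0.35) for Cacng4 and 2.72 (SE 0.49) for Kcnk1. The lower genes included Kcnn4 (−1.35, SE 0.43), Kcna3 (−1.27, SE 0.35), Cacna1s (−1.21, SE 0.41) and Kcnk13 (−0.83, SE 0.26), for which GAL1– cells had −2.72, −2.29, −3.40 and −1.69. Kcnk6 was at −1.54 (SE 0.55, adjusted p = 0.0512) and Kcnj2 at −0.95 (SE 0.35, adjusted p = 0.0592), with all PDGFRA+ libraries below all GAL1+ libraries. In this contrast all 12 leukocyte markers were lower (median −1.55) and all 11 OPC markers higher (median 2.43).

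The PDGFRA sort gave no channel gene past the threshold, and 0% of all genes passed it. At an unadjusted p under 0.05 (limma), 19 channel genes were higher in PDGFRA+ cells and none lower, against 6.02% and 5.74% of all genes (11.8% together). The median log2 fold change was 0.41 over channel genes, against −0.02 over all genes, and 71 of 92 were positive. The medians of T3, T4 and T5 were 0.37, 0.39 and 0.68. Without PDGFRA– T5, 8 channel genes were higher and 1, Kcnh1, lower at an unadjusted p under 0.05, against 2.7% and 3.55% of all genes, the median was 0.27, and 64 of 92 were positive. The PDGFRA+ libraries lay wholly above the PDGFRA– libraries for 15 genes and below for 0, against 3.51% and 3.43% of all genes. With T3 and T4 alone as PDGFRA– libraries these counts were 22 and 1, against 5.68% and 6.47%. The lowest unadjusted p values were those of Kcnk3, Cacna1e, Kcnip3, Kcnk10 and Scn3b. Cacna1e (Cav2.3) was at 4.95, 4.65 and 5.22 log2 CPM in PDGFRA+ and 4.23, 4.07 and 4.28 in PDGFRA– cells, a fold change of 0.75 (SE 0.21, adjusted p = 0.273). The 3 differences were 0.72, 0.58 and 0.94, and without PDGFRA– T5 the fold change was 0.61 (SE 0.24). For Kcnk3 the fold change was 1.09 (SE 0.31, adjusted p = 0.264) and per tumor 0.87, 0.84 and 1.57, and for Kcnip3 1.11 (SE 0.33, adjusted p = 0.290) and per tumor 0.49, 1.01 and 1.83, T5 being the largest of both. Without PDGFRA– T5 they were 0.79 (SE 0.30) and 0.80 (SE 0.34). Kcnn4 (−0.95) and Kcna3 (−0.53) lay on the other side of 0, and without PDGFRA– T5 they were −0.99 and 0.04. The OPC markers had a median of 0.50 in this sort, the leukocyte markers −0.39 and the mature oligodendrocyte markers −1.94, with no gene of these lists called.

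**Figure D5:**
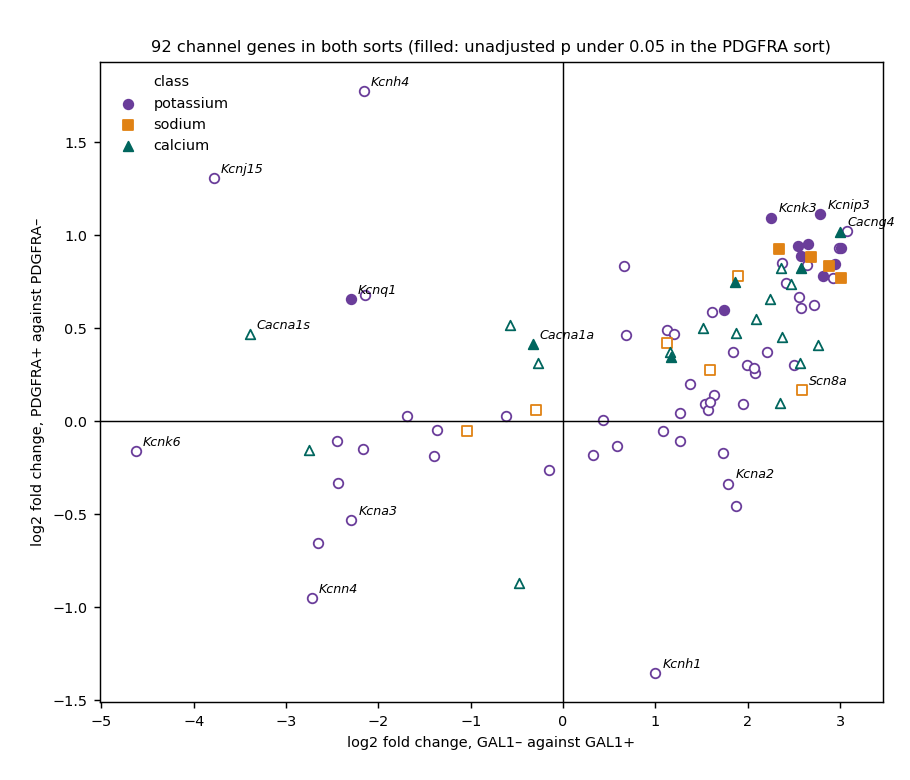
Log2 fold change of GAL1– against GAL1+ cells (x axis) and of PDGFRA+ against PDGFRA– cells (y axis) for 92 channel genes, with a symbol per class; filled symbols have an unadjusted p under 0.05 in the PDGFRA sort. The x axis spans −4.63 to 3.08 and the y axis −1.35 to 1.77; all 19 filled symbols lie above 0 on the y axis. The sorts share no library and were made from the same 3 tumors.

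The difference between the sorts was itself tested, as GAL1– over GAL1+ less PDGFRA+ over PDGFRA–. It was called for 54 channel genes, 40 positive and 14 negative, where 31.1% of all genes were called, 14.5% positive and 16.6% negative. Among called genes the largest positive values were Scn8a (2.42, SE 0.48, adjusted p = 0.00582), Cacng7 (2.35, SE 0.54) and Kcnj3 (2.32, SE 0.46). Scn8a was at 5.17, 5.33 and 5.26 log2 CPM in PDGFRA+ and 4.85, 5.24 and 5.16 in PDGFRA– cells, ranges that overlapped, while GAL1– and GAL1+ cells differed by 2.58. The largest negative values were Kcnj15 (−5.09, SE 1.06), Kcnk6 (−4.47, SE 0.78) and Kcnh4 (−3.93, SE 1.34, adjusted p = 0.0499). That of Kcnh4 rested on 0 reads in PDGFRA– T4, and without T4 it was −2.33 (SE 0.69) and not called (limma, adjusted p = 0.0743). Cacna1s and Kcnq1 followed at −3.87 and −2.96. The count rested on the block and on single tumors, being 23 without the tumor block and 12 without T4, and it was 64 without PDGFRA– T5.

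Between PDGFRA+ and GAL1– cells, 7 channel genes were called, all higher in PDGFRA+ cells, where 8.27% of all genes were called, 8.26% higher and 0.011% lower. They were Kcnj15 (3.19, SE 0.75), Kcnk6 (3.09, SE 0.55), Cacna1f (2.65, SE 0.54), Cacna1s (2.19, SE 0.41), Kcnq1 (1.76, SE 0.28), Kcnj2 (1.5, SE 0.35) and Kcne4 (1.32, SE 0.35). None of the 7 was called without T3, and 2 channel genes were called without the tumor block. The median over channel genes was −0.27, against −0.02 over all genes, and 64 of 92 were negative. All 12 leukocyte, 9 of 10 microglia, 9 of 11 macrophage, all 10 endothelial and 7 of 10 pericyte markers were higher in PDGFRA+ cells in the same contrast. At an unadjusted p under 0.05, 14 channel genes were higher and 1 lower, against 15.5% and 1.85% of all genes (17.3% together). A fit to these 2 populations alone called 12 channel genes higher and 13 lower, against 13.1% and 5.51% of all genes in the same fit.

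Genes of ion transport outside the channel families were mixed. Of 31 measured partners of the channels (scaffolds, anchors and modulators), 19 were higher and 7 lower in GAL1– than in GAL1+ cells, where 58.2% of all genes were called, 29.3% higher and 28.9% lower. Cntn1 (contactin-1, which binds sodium channels) was higher by 2.96 and Dpp10 (an auxiliary subunit of Kv4) by 2.92, and Abcc9 (the sulfonylurea receptor SUR2, partner of Kcnj8) was lower by −2.79. Of 19 sodium and potassium pumps and cotransporters, 9 were higher and 6 lower, with Fxyd6 at 2.68, Atp1b2 at 2.21 and Fxyd5 at −3.84. Calcium pumps, exchangers and release channels had 11 higher and 10 lower of 30, from the sodium-calcium exchangers Slc8a3 (2.74) and Slc8a2 (2.62) to Itpr3 (−1.81), a calcium release channel, and Slc8b1 (−3.49), the exchanger of mitochondria. Slc8a1 was also lower (−1.61), so the exchangers went both ways. Other cation channels had 8 higher and 10 lower of 27, from Asic1 (3.20) and Hcn3 (3.12) to Trpm2 (−4.67) and the proton channel Hvcn1 (−4.88). Chloride channels had 11 higher and 8 lower of 24. The medians of these 5 lists were 1.30, 0.73, 0.05, −0.20 and 0.33, beside 1.69 for the voltage-gated and potassium channel genes.

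Reads of overlapping genes limit some of these values. The exons of 32 channel genes overlap an exon of a gene on the opposite strand in GENCODE M21, 26 of them among the 74 called in the GAL1 sort, and the strand setting of the counting is not given in the sources used here, though the library kit keeps strand. Kcnd3 and Kcnd3os, whose fold changes were 2.94 and 2.93, are such a pair, and they share 165 exon bases, 1.72% of the exon length of Kcnd3 and 12.2% of that of Kcnd3os. The part of shared reads in these values was not tested.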

How the data were processed

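Libraries of EGFR+ cells sorted from 3 mouse GBMs (4 populations, 12 samples) were analysed. Per the labels and the study's methods, reads were processed with fastp, aligned with STAR in 2 passes to mm39, counted over exons with featureCounts (multi-mapping reads as fractions), filtered, normalized by TMM and passed to voom. Tool versions and the strand setting are not given in the sources used here. As deposited by the authors, values are on the log2 CPM scale, read here with voom's offset of 0.5 reads. No counts were used for the main test. Reads were recovered by setting each library's lowest value to 0 reads, and 41.3% to 59.2% of values per library were whole within 0.01. Samples were grouped and paired by the labels' population and tumor number. Libraries of the same tumor deviated together from their group means (mean r = 0.486 across genes over 18 pairs, lowest 0.140). The 36 pairs from different tumors had a mean r of −0.243. That value largely follows from centring each group on its own mean and is not separate evidence.

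A linear model with population and tumor was fitted to all 12 libraries and 18180 genes with limma 3.58.1 in R 4.3.3 (eBayes with trend; degrees of freedom were 6 residual and 3.49 prior). A gene was called at a Benjamini-Hochberg adjusted p under 0.05, and fold changes are on the log2 CPM scale, which understates changes of low genes. Tumors are the replicates. The smallest p of an exact permutation test of 3 against 3 is 0.1 if the pairing by tumor is ignored. Swaps within tumors allow fewer arrangements still, so no such test was used. The fit was tested on simulated data. Alternatives were no block, only the 2 groups compared, eBayes without trend or robust, voom weights, a pseudocount of 1, filters on low values, quantile normalization, median centring, other call rules, and leaving out tumors or PDGFRA– T5. Genes are named where they are among the 10 largest or smallest called changes of a comparison in 1 direction in all tumors (the 5 lowest p where fewer than 5 were called), the best covered of a subfamily, or one of 66 measured landmark genes (of 71 listed), with further genes named to complete counts. From other lists, extreme called genes and most abundant genes are named. Some genes that the rule names, and an allele of the model, are not reported here, though genes measured enter every count and sum. The members and lists were chosen with earlier results of these data known. Gene models are GENCODE M21 and promoters RefSeq, both on GRCm38, used for names, lengths and sequences only. Python 3.11.15 and matplotlib 3.10.9 were used for lengths and figures.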

Additional observations from a re-analysis of the deposited data

How the results depend on the processing

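The count of channel genes called between GAL1– and GAL1+ cells stayed within 1.5 times 74 under every alternative run, from 66 to 75 at an adjusted p, and that between PDGFRA+ and GAL1+ cells within 1.5 times 58, from 40 to 62. Of these, 61 of 74 and 38 of 58 kept their direction and their side of the threshold in every alternative fit that tested them, and no named gene's called fold change reversed. The filter at log2 CPM above 1 left 70 of the 74 to test. Genes that a filter removed were judged by the other fits, here and below, and other call rules were not part of this check. The replicate block is part of the main fit, and with no replicate block 69, 46, 0 and 2 genes were called in the GAL1– with GAL1+, PDGFRA+ with GAL1+, PDGFRA+ with PDGFRA– and PDGFRA+ with GAL1– comparisons, and 23 for the difference between sorts. The PDGFRA+ with GAL1– count of 7 moved to 25 with only the 2 groups compared, to 3 under quantile normalization, to 15 at an unadjusted p, and to between 0 and 3 without 1 tumor (0 without T3, 3 without T4 and 3 without T5), and none of the 7 calls held throughout. The 54 calls of the difference between sorts fell to 26 without T3, 12 without T4 and 31 without T5, and 3 held throughout, with 40 of 54 positive over all tumors, 23 of 26 without T3, 7 of 12 without T4 and 18 of 31 without T5. In the PDGFRA sort 0 genes were called by each fit at an adjusted p, 19 at an unadjusted p, and 9 (8 higher and 1 lower) at an unadjusted p without PDGFRA– T5, a setting chosen after seeing the data. Without PDGFRA– T5, the calls were 74, 62, 0, 9 and 64. The median of all genes shifted by more than 0.1 under quantile normalization (to −0.15 in PDGFRA+ with GAL1– cells and 0.11 for the difference between sorts) and median centring (to −0.15 in PDGFRA+ with GAL1+ and −0.13 in PDGFRA+ with GAL1– cells). The causes of these changes were not tested. Depth limits the 14 channel genes with a library at or under 3 reads, Kcnj15, Kcne3, Cacna1f and Cacna2d2 among the called ones.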
